A study of Mus musculus with 11 samples.

Results

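The mitochondrially encoded genes were taken as all rows of the deposited count table placed on chromosome MT. This gave 37 of 46078 genes: 2 ribosomal RNAs, 13 messenger RNAs and 22 transfer RNAs. Members were chosen by the chromosome name, but the set itself was selected on measured values: it was proposed after its high share of the counts in CD8+CD127-PD-1+ cells was known. Shares and ratios are therefore given as descriptions with no test, and the fits of single genes are read beside the share of all tested genes that did the same. The libraries came from T cell populations sorted from kidneys of wild-type mice. All mice had been immunised with recombinant mouse MPO (myeloperoxidase) and then injected with sheep globulin that binds mouse basement membrane, at a low dose, to start glomerulonephritis, and the kidneys were taken 21 days later. The 4 populations were CD4+CD127-PD-1+ (2 libraries), CD4+CD127+PD-1- (3), CD8+CD127-PD-1+ (3) and CD8+CD127+PD-1- (3), where CD127 is the IL-7 receptor alpha chain and PD-1 is an inhibitory receptor. No unimmunised mice and no mouse ages are given in the sources used here. Cells of 3 mice were pooled for each sort, so the spread between libraries is a spread between pools. Bulk counts cannot tell fewer cells of a type from less RNA per cell.

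The mitochondrial genome is a small circle that is transcribed from both strands into long precursors. The precursors are cut at the transfer RNAs that lie between the other genes, and the products are then stabilised or degraded at different rates, so genes made in the same transcript can differ in level. All 13 proteins are subunits of the respiratory chain or of ATP synthase, and the rest of those complexes is encoded in the nucleus. In T cells, mitochondrial activity is known to change with activation, memory formation and chronic stimulation.

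Not every mitochondrial gene was measurable in this table. Across the 11 libraries, 12 of the 37 genes had a count of 0 throughout. They were 4 messenger RNAs, mt-Co2 and mt-Co3 (subunits of cytochrome c oxidase), mt-Atp8 (ATP synthase) and mt-Nd4l (complex I), and 8 transfer RNAs. mt-Atp6, the other ATP synthase subunit, reached at most 1 count in any library. A count of 0 allows up to 3 counts, which is 0.187 to 0.284 counts per 1000000 counts of a library. This limit covers counting error only and says nothing of reads that were not assigned to a gene.

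The messenger RNA genes at or near 0 lie in the same stretch of the map, and all but mt-Atp8 have annotated nuclear copies. Nuclear copies of mitochondrial DNA are old insertions, annotated as pseudogenes. In GENCODE M21, which uses the GRCm38 build named in the submitters' processing notes, 7 such pseudogenes lie at chr1:24611535-24616197 and match mitochondrial positions 6394 to 11042. Gm28661 had 0 substitutions over 681 bases of mt-Co2, Gm10925 had 0 over 678 bases of mt-Atp6, and Gm28437 had 0 over 783 bases of mt-Co3. Gm10222 likewise had 0 substitutions over 294 bases of mt-Nd4l, and Gm28439 had 0 over bases 1 to 876 of mt-Nd4, another complex I subunit. Gm28438, the copy of mt-Nd3 (also complex I), carried 1 substitution over 345 bases, T3C, counted from base 1 at the start of the gene with the mitochondrial base first. The first 75 bases of both are shown because they hold this difference, with the differing base in capitals.
mt-Nd3: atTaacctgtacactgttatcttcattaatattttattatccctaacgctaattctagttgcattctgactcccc
Gm28438: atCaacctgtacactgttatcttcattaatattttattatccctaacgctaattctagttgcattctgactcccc

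mt-Co1, the catalytic subunit of cytochrome c oxidase, is matched only over its later bases on chromosome 1, by Gm29216, and over its whole length by a diverged copy on chromosome 2. That copy, Gm13340, had 37 substitutions over 1545 bases. Gm29216 had 6 substitutions over bases 1054 to 1545, all of them between bases 1056 and 1066. Bases 1151 to 1225 of the gene, where Gm29216 has no substitution, are shown to set it beside the more diverged copy. The capitals mark T1179C, G1180A and C1209T, each with the base of mt-Co1 first.
mt-Co1: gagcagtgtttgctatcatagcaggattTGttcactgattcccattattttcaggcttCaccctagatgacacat
Gm29216: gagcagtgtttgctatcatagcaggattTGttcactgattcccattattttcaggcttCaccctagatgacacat
Gm13340: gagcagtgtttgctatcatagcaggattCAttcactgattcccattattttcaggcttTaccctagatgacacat

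Reads were 75 bases long, so each gene was scanned for 75-base stretches that also occur, letter for letter, in an annotated transcript outside the mitochondrial genome. Such stretches made up 99.5% of those in mt-Co2, 99.5% in mt-Atp6, 99.9% in mt-Co3, 98.7% in mt-Nd4l and 97.8% in mt-Nd3. The share was 61.5% in mt-Nd4, 39.8% in mt-Co1, 5.71% in mt-Nd2 and 1.66% in mt-Nd5. It was 0% in both ribosomal RNAs, mt-Nd1, mt-Nd6 and mt-Cytb. The 5 genes above 97% were therefore the 4 at or near 0 and mt-Nd3, which had 4 to 41 counts per library. mt-Atp8 was at 0 without an annotated copy. On chromosome 1 the interval between Gm28661 and Gm10925 is 233 bases long, and so is the mitochondrial interval that holds mt-Atp8, but no genome sequence was used here to compare them. The 7 chromosome 1 copies themselves had 25 to 95 counts per library in sum. How reads with several matching positions were counted is not given in the sources used here. A count of 0 is accordingly not read as absence of the transcript, and fold changes of mt-Co1 and mt-Nd4 may rest on part of each gene.

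**Figure D1:**
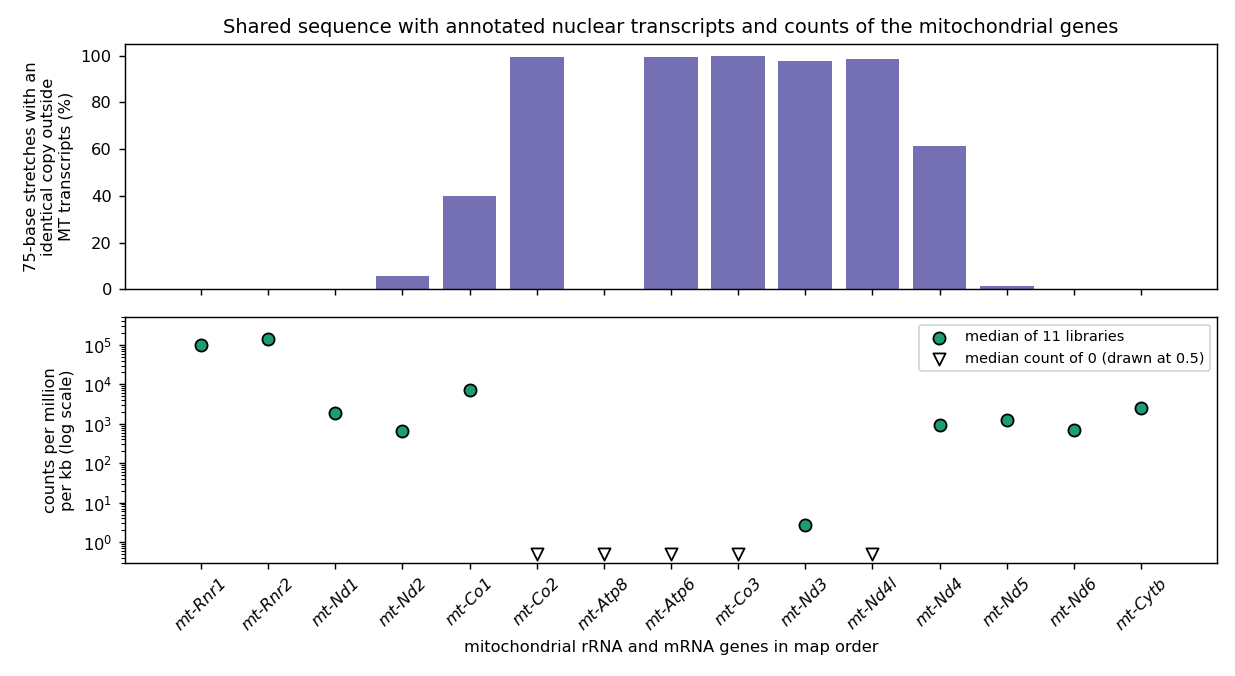
The upper panel gives, for the 2 ribosomal RNAs and 13 messenger RNAs in map order, the percent of 75-base stretches that also occur in an annotated transcript outside the mitochondrial genome, and the lower panel gives the median counts per 1000000 per kilobase over 11 libraries on a log axis. The genes with a median count of 0 (triangles drawn at 0.5) form a block between mt-Co1 and mt-Nd4 that is broken only by mt-Nd3, and mt-Atp8 is the member of that block without an annotated copy.

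Transfer RNAs are shorter than or as long as a read, from 59 to 75 bases, which bears on what the table could hold of them. A 75-base read could touch a transfer RNA without touching a neighbouring gene at 67 positions for mt-Tp, 31 for mt-Tn, 26 for mt-Tc and 1 for mt-Tl1, and at none for the other 18. The map was taken as linear for this, so reads across its origin, where mt-Tf lies at bases 1 to 68, were left out. mt-Tp (proline) had 46 to 182 counts per library, mt-Tl1 (a leucine transfer RNA) 5 to 20 and mt-Tc (cysteine) 5 to 15. No other transfer RNA passed 8 counts in any library. The 3 that had enough counts to be tested are shown with the anticodon in capitals, all in the sense of the transfer RNA.
mt-Tp: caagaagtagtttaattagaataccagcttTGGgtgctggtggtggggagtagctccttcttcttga
mt-Tl1: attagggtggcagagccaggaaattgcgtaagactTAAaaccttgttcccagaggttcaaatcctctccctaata
mt-Tc: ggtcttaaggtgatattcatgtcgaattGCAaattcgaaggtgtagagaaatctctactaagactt
mt-Tp lies at chrMT:15356-15422 and mt-Tc at chrMT:5192-5257, both on the minus strand, and mt-Tl1 at chrMT:2676-2750 on the plus strand, directly after mt-Rnr2. The counts of a transfer RNA may thus hold pieces of precursors. No source used here says whether strand was used in counting, so reads of a minus-strand gene such as mt-Nd6 or mt-Tp cannot be told from reads of the opposite strand.

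Libraries held 10.6 to 16.1 M counts (M for 1000000), and none was identical to another. Counts outside the mitochondrial genome were 8.56 to 9.16 M in CD8+CD127-PD-1+ libraries and 8.67 to 9.64 M in CD8+CD127+PD-1- libraries, so these ranges overlapped. Mitochondrial counts were 5.73 to 7.20 M in the first and 3.84 to 4.87 M in the second. No pan-T cell marker of 16 was at 0 in any group, and their summed level was 2762 to 4187 CPM (counts per 1000000 after TMM scaling, which sets libraries to a common level of most genes). In each lineage 2 of the 16 were called lower in CD127-PD-1+ than in CD127+PD-1- cells and 0 higher. Of all tested genes 6.56% (CD8) and 4.87% (CD4) were called lower. The pan-T cell sums were 2762 to 3879 CPM in CD8+CD127-PD-1+ against 3271 to 3941 CPM in CD8+CD127+PD-1- libraries. In CD4 cells they were 3342 to 4169 CPM against 3539 to 4187 CPM. Myeloid markers also differed between the sorted states: 19 of 19 were called higher in CD8+CD127-PD-1+ than in CD8+CD127+PD-1- cells, where 9.05% of all tested genes were. In the matching CD4 comparison 16 of 19 were, against 6.81% of all tested genes. The fit and its threshold are given with the comparisons below. Their summed level was 8942 to 13200 CPM in CD8+CD127-PD-1+ libraries against 1053 to 3490 CPM in CD8+CD127+PD-1- libraries, with no marker at 0 in any group. In CD4+CD127-PD-1+ cells it was 12156 CPM in replicate 1 and 4780 CPM in replicate 2, against 1298 to 2575 CPM in CD4+CD127+PD-1- cells. Of 14 tested kidney tubule markers, 0 were called in either comparison, where 15.6% (CD8) and 11.7% (CD4) of all tested genes were called in 1 direction or the other. The sums of all 15 listed tubule markers were 48.9 to 118 CPM in CD8+CD127-PD-1+ libraries and 29.7 to 371 CPM in CD8+CD127+PD-1- libraries. Between the CD8 states, 4 of 10 B and plasma cell markers were called higher in CD127-PD-1+ cells (sums of 567 to 795 CPM against 288 to 489 CPM), and 5 of 10 plasmacytoid dendritic cell markers were called lower (436 to 509 CPM against 777 to 1549 CPM), where 6.56% of all tested genes were. Between the CD4 states 0 of 10 B and plasma cell markers were called. There 6 of 10 plasmacytoid dendritic cell markers were called lower, against 4.87% of all tested genes, with sums of 455 to 635 CPM against 992 to 1974 CPM. Of 9 endothelium and podocyte markers 4 were tested, and 2 of them, Pecam1 and Cdh5, were called lower in the CD127-PD-1+ state of both lineages. The sums of the 9 were 27.5 to 47.6 CPM against 66.4 to 102 CPM in CD8 cells and 62.9 to 65.7 CPM against 122 to 156 CPM in CD4 cells, with no overlap between states.

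The ribosomal RNAs made up most of the mitochondrial counts in every library. mt-Rnr1 (12S, chrMT:70-1024) and mt-Rnr2 (16S, chrMT:1094-2675) are the RNAs of the small and large subunit of the mitochondrial ribosome. Together they took 35.7%, 40.3% and 40.8% of all counts in the CD8+CD127-PD-1+ replicates 1 to 3. In CD8+CD127+PD-1- cells the values were 31.7%, 28.6% and 31.8%. All 3 values of the first group lay above all 3 of the second. In CD4+CD127-PD-1+ cells both replicates were at 30.8%, and in CD4+CD127+PD-1- cells the values were 28.1%, 29.2% and 30.8%. The means were 38.9% ± 2.84 (SD, n = 3) in CD8+CD127-PD-1+ cells and 30.7% ± 1.82 (n = 3) in CD8+CD127+PD-1- cells. They were 30.8% ± 0.0399 (n = 2) and 29.4% ± 1.37 (n = 3) in the CD4 cells, in the same order of states. The ranges of the 3 groups other than CD8+CD127-PD-1+ overlapped.

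Messenger RNAs of the mitochondrial genome were a smaller class with the same order of groups at the top. Their 13 genes took 2.84%, 3.18% and 4.03% of all counts in CD8+CD127-PD-1+ cells. In CD8+CD127+PD-1- cells they took 2.10%, 2.11% and 1.78%. The lowest library of the first group was above the highest of the second, and replicate 3 was the highest of all 11. CD4+CD127-PD-1+ cells had 2.16% and 1.62%, and CD4+CD127+PD-1- cells had 1.88%, 1.95% and 1.76%. The means were 3.35% ± 0.612 (SD, n = 3) and 2.00% ± 0.190 (n = 3) in CD8 cells, and 1.89% ± 0.385 (n = 2) and 1.86% ± 0.0983 (n = 3) in CD4 cells. The 2 CD4+CD127-PD-1+ replicates lay on either side of all 3 libraries of the other CD4 group.

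Transfer RNAs were at the limit of the table. All 22 together had 165, 166 and 235 counts in CD8+CD127-PD-1+ libraries and 131, 109 and 85 in CD8+CD127+PD-1- libraries. Per 1000000 counts this was 12.2 ± 2.09 (SD, n = 3) against 7.93 ± 1.82 (n = 3), and the CD4 groups had 7.22 ± 1.63 (n = 2) and 6.75 ± 0.776 (n = 3). The lowest CD8+CD127-PD-1+ library had 10.96 per 1000000, with a Wilson 95% interval of 9.41 to 12.8. The highest CD8+CD127+PD-1- library had 9.23, with an interval of 7.78 to 10.95, so at this depth those libraries were not separated. The same interval was at most 0.0278 percentage points to either side for the ribosomal RNA share and 0.00962 for the messenger RNA share. These intervals cover counting error only, since amplified reads are not independent molecules.

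**Figure D2:**
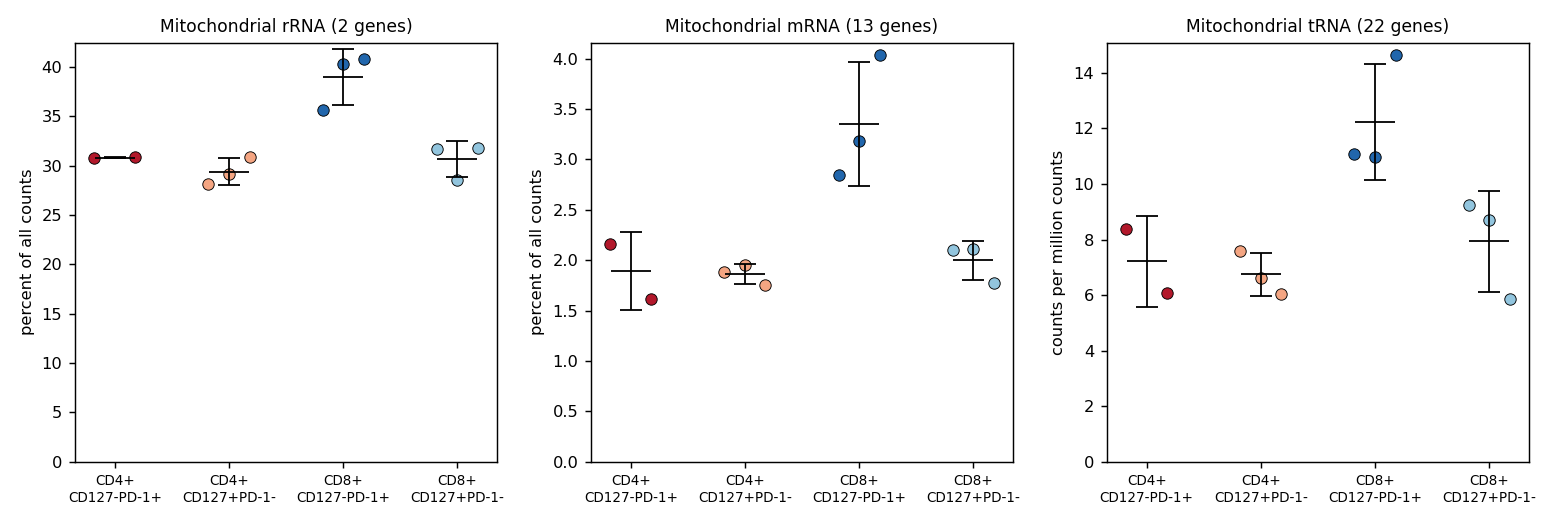
Each point is a library, the long bar is the group mean and the short bars are 1 SD. The panels give the summed counts of the 2 mitochondrial ribosomal RNAs and the 13 messenger RNAs as percent of all counts, and of the 22 transfer RNAs per 1000000 counts. In each panel the 3 CD8+CD127-PD-1+ libraries sit above the other 8.

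The classes were not higher in proportion to each other. For each 100 ribosomal RNA counts, CD8+CD127-PD-1+ libraries held 7.98, 7.88 and 9.88 mitochondrial messenger RNA counts. The CD8+CD127+PD-1- libraries held 6.62, 7.40 and 5.59, so the groups did not overlap. The CD4+CD127-PD-1+ replicates held 7.03 and 5.25, and the CD4+CD127+PD-1- replicates 6.68, 6.69 and 5.70. The means were 8.58 ± 1.13 (SD, n = 3) and 6.54 ± 0.905 (n = 3) in CD8 cells and 6.14 ± 1.26 (n = 2) and 6.36 ± 0.570 (n = 3) in CD4 cells. Transfer RNA counts did not separate the groups in this way. They were 34.5 to 38.9 per 100000 messenger RNA counts in CD8+CD127-PD-1+ libraries, inside the range of 32.9 to 44.0 in CD8+CD127+PD-1- libraries.

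Within the messenger RNAs, mt-Co1 took the largest share. It made up 48.7%, 49.8% and 46.3% of the mitochondrial messenger RNA counts in CD8+CD127-PD-1+ libraries. In CD8+CD127+PD-1- libraries it made up 55.7%, 52.3% and 58.0%. The share of mt-Co1 was thus lower in all 3 libraries of the group that held the most mitochondrial messenger RNA. In CD4 cells it was 51.9% and 61.9% in the CD127-PD-1+ replicates and 55.7% to 57.0% in the CD127+PD-1- replicates. Complex I genes, which encode the core of the enzyme that takes electrons from NADH, made up 35.5%, 35.0% and 36.6% in CD8+CD127-PD-1+ libraries against 30.5%, 33.8% and 29.2% in CD8+CD127+PD-1- libraries. mt-Cytb, the only mitochondrial gene of complex III, made up 15.2% to 17.1% against 12.9% to 14.0%. For each count of mt-Cytb there were 2.70 to 3.28 counts of mt-Co1 in the first group and 3.74 to 4.51 in the second. These shares depend on the annotated part of each gene that could be counted, which was not the same for mt-Co1 and mt-Cytb.

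The ratio of the 2 ribosomal RNAs separated the groups differently. mt-Rnr2 counts per mt-Rnr1 count were 2.57, 2.58 and 2.54 in CD8+CD127+PD-1- libraries and 2.47, 2.30 and 2.53 in CD8+CD127-PD-1+ libraries. They were 2.40 and 2.19 in CD4+CD127-PD-1+ libraries and 2.18, 1.92 and 2.08 in CD4+CD127+PD-1- libraries. All 3 CD8+CD127+PD-1- libraries lay above all 3 CD4+CD127+PD-1- libraries. The means were 2.56 ± 0.0203 (SD, n = 3) and 2.06 ± 0.129 (n = 3) there, and 2.43 ± 0.118 (n = 3) and 2.29 ± 0.149 (n = 2) in the CD127-PD-1+ states of CD8 and CD4 cells. mt-Nd5 and mt-Nd6 overlap at their ends on opposite strands, and their ratio did not separate the CD8 groups: mt-Nd5 counts per mt-Nd6 count were 6.41 to 7.94 in CD8+CD127-PD-1+ and 6.26 to 7.36 in CD8+CD127+PD-1- libraries.

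**Figure D3:**
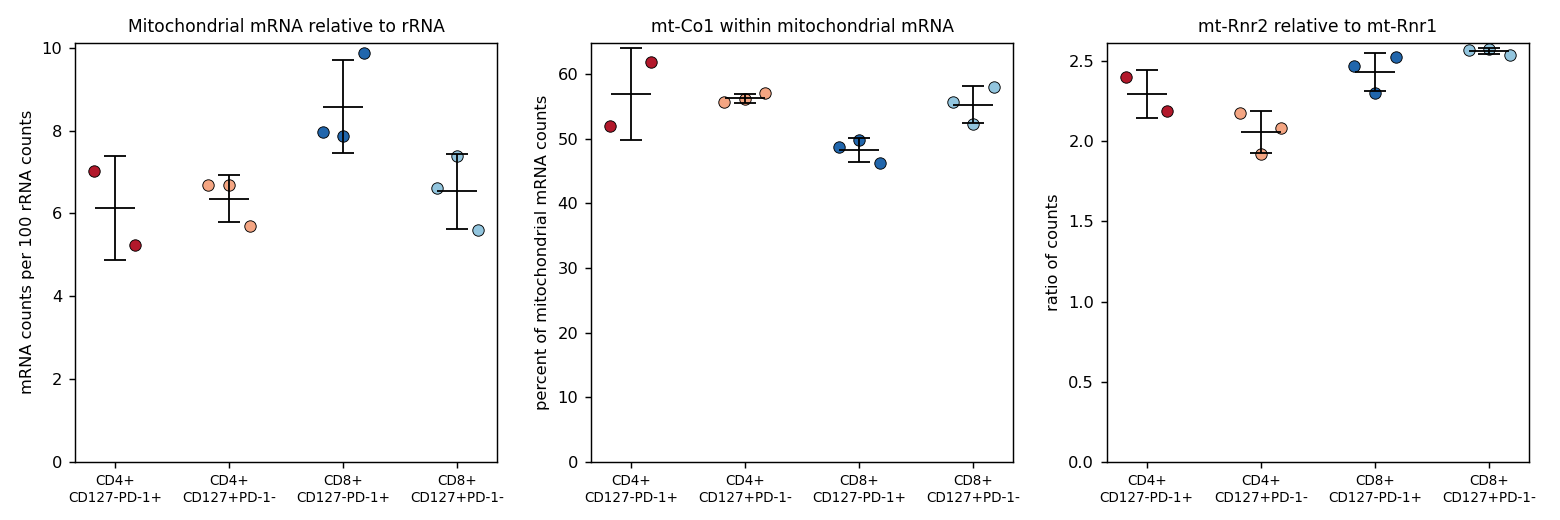
Ratios within the mitochondrial counts by group, with each point a library, the long bar the mean and the short bars 1 SD. The messenger RNA counts per 100 ribosomal RNA counts (left) are highest in CD8+CD127-PD-1+ libraries, the percent of messenger RNA counts from mt-Co1 (middle) is lowest there, and the mt-Rnr2 to mt-Rnr1 ratio (right) is lowest in CD4+CD127+PD-1- libraries.

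Per kilobase of annotated length, the medians over 11 libraries ran from 137364 counts per 1000000 for mt-Rnr2 and 101297 for mt-Rnr1 to 7153 for mt-Co1. mt-Cytb followed at 2586, mt-Nd1 at 1865, mt-Nd5 at 1231, mt-Nd4 at 942, mt-Nd6 at 691 and mt-Nd2 at 643 counts per 1000000 per kilobase. mt-Nd3 was at 2.72 on this scale. How the shared stretches of mt-Co1 (39.8%) and mt-Nd4 (61.5%) were counted could move the place of these genes in the order. mt-Nd6, the only minus-strand messenger RNA, stood between mt-Nd4 and mt-Nd2, both transcribed from the other strand.

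Of the 37 genes, 13 had enough counts to enter the fit: both ribosomal RNAs, 8 messenger RNAs and mt-Tc, mt-Tl1 and mt-Tp. The other 24 were not tested. Each comparison below comes from a fit of all 16365 tested genes with edgeR's quasi-likelihood test, and a gene was called at a Benjamini-Hochberg adjusted p under 0.05. Fold changes are on the log2 scale with their standard error (SE).

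In CD8 cells, 11 of the 13 tested mitochondrial genes were called higher in CD127-PD-1+ than in CD127+PD-1- cells and 0 were called lower. Over all tested genes 9.05% were called higher and 15.6% in either direction. The same 11 genes had every CD8+CD127-PD-1+ library above every CD8+CD127+PD-1- library, which held for 18% of all tested genes, and were the 11 with an unadjusted p under 0.05, which 29.5% of all tested genes had. As the set was proposed with the mitochondrial share of these libraries known, these counts are a description. The median log2 fold change of the 13 was 1.10, against 0.01 over all tested genes.

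The ribosomal RNAs had the smallest called differences. mt-Rnr1 stood at 111789, 138134 and 138214 CPM in CD8+CD127-PD-1+ libraries and at 84927, 73286 and 90304 CPM in CD8+CD127+PD-1- libraries. Its log2 fold change was 0.64 (SE 0.13, adjusted p = 0.00607). mt-Rnr2 stood at 276123, 317922 and 349384 CPM against 218118, 189016 and 229359 CPM, a log2 fold change of 0.57 (SE 0.13, adjusted p = 0.0104). The groups did not overlap for either gene, and replicate 1 was the lowest of the higher group for both.

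mt-Co1 had the smallest fold change among the messenger RNAs. It was at 15069.5, 17911 and 22276 CPM in CD8+CD127-PD-1+ libraries and at 11169, 10142 and 10369 CPM in CD8+CD127+PD-1- libraries. The log2 fold change was 0.80 (SE 0.13, adjusted p = 0.00207). Replicate 3 was the highest, and the lowest CD127-PD-1+ library was still above all 3 CD127+PD-1- libraries.

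mt-Cytb, whose protein carries electrons through complex III, was at 4895, 5466 and 8259 CPM against 2768, 2715 and 2301 CPM. Its log2 fold change was 1.26 (SE 0.22, adjusted p = 0.00327). The 3 higher libraries were spread more widely than the 3 lower ones, with replicate 3 well above the other two.

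Complex I genes were similar to mt-Cytb in size of difference. mt-Nd5 was at 4015, 4501 and 6259 CPM in CD8+CD127-PD-1+ libraries against 2145, 2233 and 1857 CPM, and mt-Nd4 was at 2312, 2656 and 3803 CPM against 1240.4, 1349.98 and 1132 CPM. mt-Nd1 was at 2959.8, 3389 and 4744 CPM against 1706, 1983 and 1481 CPM. In all 3 genes the order of the higher libraries was the same, with replicate 3 the highest and replicate 1 the lowest.

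mt-Nd2 was at 1182, 1318 and 2019.9 CPM against 686, 644 and 492 CPM, and mt-Nd6 at 506, 702 and 797 CPM against 343, 339.95 and 252 CPM. mt-Nd3, which had few counts, was at 1.75, 2.99 and 3.05 CPM against 0.741, 0.953 and 0.624 CPM. The log2 fold changes were 1.24 for mt-Nd5, 1.24 for mt-Nd4, 1.10 for mt-Nd1, 1.31 for mt-Nd2 and 1.10 for mt-Nd6, with SEs from 0.18 to 0.27 and adjusted p from 0.00101 to 0.00747. For mt-Nd3 the log2 fold change was 1.74 (SE 0.47, adjusted p = 0.0264). mt-Nd6, from the opposite strand, and mt-Nd1 thus had the same estimate.

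Among the transfer RNAs, mt-Tp was called higher and the other two were not. mt-Tp was at 10.2, 8.96 and 13.5 CPM against 5.79, 5.57 and 3.74 CPM, a log2 fold change of 1.11 (SE 0.24, adjusted p = 0.0101). mt-Tl1 had 0.730, 1.27 and 1.49 CPM against 1.15, 0.953 and 0.901 CPM, and mt-Tc had 0.365, 1.12 and 1.12 CPM against 1.01, 0.513 and 0.832 CPM. Their groups overlapped, with log2 fold changes of 0.21 (SE 0.48) and 0.14 (SE 0.50), so a difference of the size seen for mt-Tp could be neither called nor excluded at 5 to 20 counts per library.

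**Figure D4:**
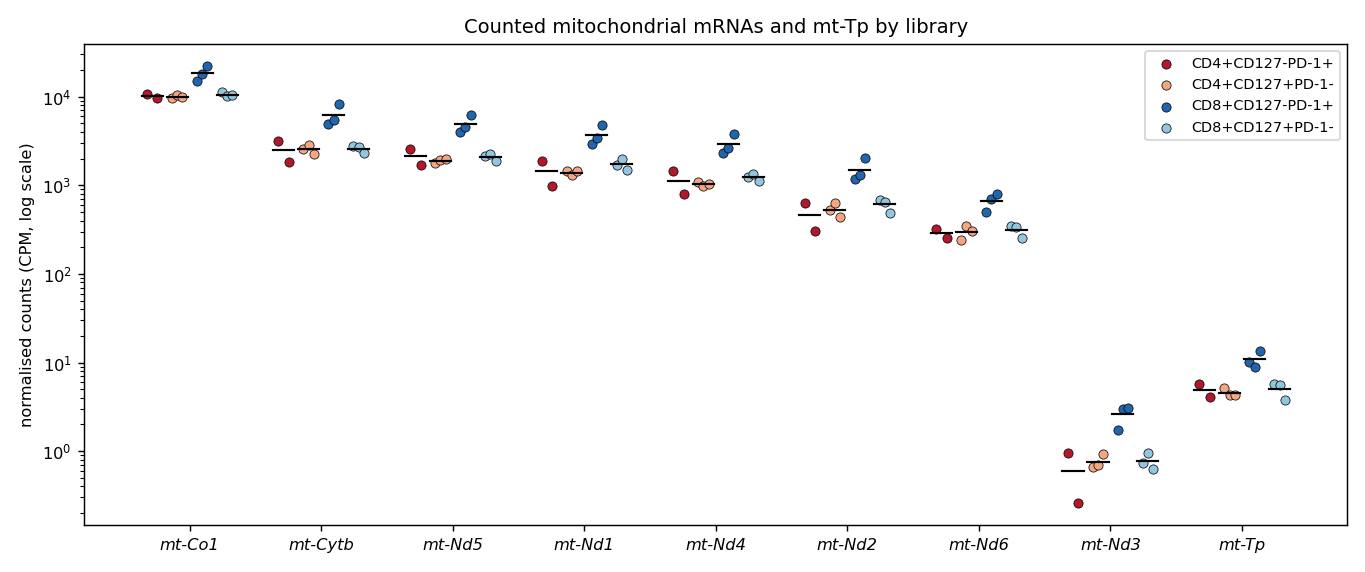
Counts per 1000000 (CPM) after TMM scaling (log axis) of the 8 tested messenger RNAs and mt-Tp, each point a library and each bar a group mean. For each of the 9 genes the 3 CD8+CD127-PD-1+ libraries lie above the other CD8 group, and the 2 CD4+CD127-PD-1+ libraries lie apart from each other for mt-Cytb, mt-Nd1, mt-Nd4, mt-Nd2 and mt-Nd3.

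The CD8 calls of 3 genes depended on single libraries, while their fold changes stayed near those given above. mt-Nd3 was lost without any 1 of 5 of the 6 CD8 libraries, the exception being CD8+CD127-PD-1+ replicate 1. Its log2 fold change was then 1.61 to 1.91, with adjusted p from 0.0537 to 0.0940 in edgeR's quasi-likelihood test. mt-Rnr2 was lost without CD8+CD127-PD-1+ replicate 3 (0.49, adjusted p = 0.0518) and without CD8+CD127+PD-1- replicate 2 (0.49, adjusted p = 0.0621). It was also lost in a fit of the compared groups only (0.57, adjusted p = 0.0699). With the description number as a replicate block, mt-Rnr2 (0.46, adjusted p = 0.0543) and mt-Nd3 (1.80, adjusted p = 0.0629) were lost. mt-Tp was lost without CD8+CD127-PD-1+ replicate 3 (0.93, adjusted p = 0.0509), which left 8 of 13 genes called. mt-Rnr1 and the messenger RNAs other than mt-Nd3 were called in all 20 other settings tried.

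Scaling bears on these values because mitochondrial RNA is a large part of each library. TMM factors were 0.838 to 0.920 in CD8+CD127-PD-1+ libraries and 0.995 to 1.09 in all others. With mitochondrial genes left out of the scaling, 11 genes were again called higher in CD8+CD127-PD-1+ cells. With library totals and no scaling, 10 were called higher, all but mt-Rnr2 (log2 fold change 0.32, adjusted p = 0.0592). That setting moved the median log2 fold change of all genes by -0.245, and moved the calls over all genes from 1481 higher and 1074 lower to 1069 higher and 2605 lower. The myeloid marker sums given above were also highest in CD8+CD127-PD-1+ replicate 3, where the pan-T cell sum was lowest. The part of the T cell, myeloid, B cell, plasmacytoid dendritic cell and endothelial differences in the mitochondrial values was not tested. CD4+CD127-PD-1+ replicate 1 had a myeloid sum inside the CD8+CD127-PD-1+ range and a mitochondrial messenger RNA share of 2.16%, below all 3 libraries of that group. Both values were lower in CD4+CD127-PD-1+ replicate 2, with a myeloid sum of 4780 CPM against 12156 CPM and a share of 1.62%.

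In CD4 cells, 0 of the 13 genes were called between CD127-PD-1+ and CD127+PD-1- cells, where 11.7% of all tested genes were called. None of the 13 had an unadjusted p under 0.05, which 25.7% of all tested genes had, and DESeq2 and limma-voom also called 0. The libraries overlapped for all 13. Over all tested genes, 21.3% had every CD4+CD127-PD-1+ library above every CD4+CD127+PD-1- library, and 19.4% had every one below. The log2 fold changes ran from -0.34 for mt-Nd3 to 0.18 for mt-Tl1, with a median of 0.04 against 0.02 over all tested genes. These estimates depended on which CD4+CD127-PD-1+ library was kept. Leaving out replicate 1 gave -1.51 for mt-Nd3, -0.83 for mt-Tl1 and -0.49 for mt-Nd1, with 11 of the 13 genes below 0. Leaving out replicate 2 gave 0.32, 0.79 and 0.43 for the same genes, with 11 of the 13 above 0. Each of these fits has 1 library in that group, which is assumed to vary like the libraries of the other groups, and neither called any of the 13.

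The CD4+CD127-PD-1+ replicates differed from each other in most messenger RNAs. mt-Cytb was at 3176 and 1819 CPM in replicates 1 and 2, against 2559, 2875 and 2236 CPM in CD4+CD127+PD-1- libraries. mt-Nd1 was at 1870.1 and 994 CPM against 1448, 1295 and 1433 CPM. mt-Nd2 was at 632 and 304 CPM against 523, 628 and 434 CPM. For these genes 1 replicate was above and the other below all 3 libraries of the compared group. mt-Co1 was less split, at 10829.6 and 9547 CPM against 9608, 10311.5 and 9860 CPM, and mt-Rnr2 was at 209360 and 201558 CPM against 176781, 180795 and 204809 CPM. The SE of the log2 fold change was 0.14 for mt-Rnr2, 0.15 for mt-Co1, 0.25 for mt-Cytb and 0.25 for mt-Nd1.

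Between lineages in CD127+PD-1- cells, 0 of 13 genes were called, where 4.42% of all tested genes were and 2.76% were called higher. None had an unadjusted p under 0.05, against 17.7% of all tested genes, and DESeq2 and limma-voom called 0. mt-Nd1, mt-Nd4 and mt-Tl1 were lower in every CD4 library than in every CD8 library, a pattern that 10.9% of all tested genes had. The log2 fold change of CD4 against CD8 cells was -0.31 (SE 0.22) for mt-Nd1, -0.26 (SE 0.21) for mt-Nd4 and -0.77 (SE 0.51) for mt-Tl1. The 2 ribosomal RNAs went in opposite directions, with 0.14 (SE 0.13) for mt-Rnr1 and -0.18 (SE 0.12) for mt-Rnr2, and neither was called.

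Between lineages in CD127-PD-1+ cells, 8 of 13 genes were called lower in CD4 than in CD8 cells and 0 higher. Of all tested genes 0.843% were called lower, 1.6% higher and 2.44% in either direction. The 8 were mt-Rnr2, mt-Co1, mt-Cytb, mt-Nd1, mt-Nd2, mt-Nd4, mt-Nd5 and mt-Nd6. In 11 of the 13 every CD4 library lay below every CD8 library, as in 13.5% of all tested genes. This comparison uses the same CD8+CD127-PD-1+ libraries as the comparison of CD8 states, so the values are given side by side and not as a second finding.

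The log2 fold change of CD4 against CD8 cells was -0.61 (SE 0.14, adjusted p = 0.0465) for mt-Rnr2 and -0.85 (SE 0.15, adjusted p = 0.0123) for mt-Co1. For mt-Nd2 it was -1.69 (SE 0.32, adjusted p = 0.0166). The other 5 called genes ran from -1.20 for mt-Nd5 to -1.39 for mt-Nd4. Of 20 other settings, the call was lost in 11 for mt-Rnr2 and in 2 or 3 for each called messenger RNA. mt-Rnr1 (-0.53, adjusted p = 0.0944), mt-Tp (-1.14, adjusted p = 0.0601) and mt-Nd3 (-2.10, adjusted p = 0.0803) did not pass. With DESeq2 all 3 were called (adjusted p = 0.0119 for mt-Rnr1, 0.00954 for mt-Tp and 0.0254 for mt-Nd3), and 11 of 13 genes in all. limma-voom called mt-Rnr1 (adjusted p = 0.0415) and 9 genes in all. Without the filter on low counts mt-Rnr1 (adjusted p = 0.00214) and mt-Tp (0.0353) were called. Among ribosomal and messenger RNAs, the estimates for mt-Rnr1 and mt-Rnr2 were the smallest in size.

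These lineage calls changed with the libraries kept. The CD4+CD127-PD-1+ group has 2 libraries, so a fit without either one has 1 library on that side, assumed to vary like the libraries of the other groups. Without replicate 2, 0 genes were called, with log2 fold changes of -0.78 for mt-Co1 (adjusted p = 0.118) and -1.27 for mt-Nd2 (adjusted p = 0.121). Without replicate 1 the log2 fold changes were -0.95 for mt-Co1 and -2.31 for mt-Nd2. All 13 estimates were below 0 in both fits. Without CD8+CD127-PD-1+ replicate 3, 3 genes were called. In a fit of the compared groups only, 1 was called. In every setting tried mt-Co1, mt-Cytb, mt-Nd1 and mt-Nd2 stayed below 0. With library totals and no scaling the median log2 fold change of all genes moved by 0.247, 7 of the 13 genes were called, and the calls over all genes moved from 262 higher and 138 lower to 721 higher and 114 lower.

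**Figure D5:**
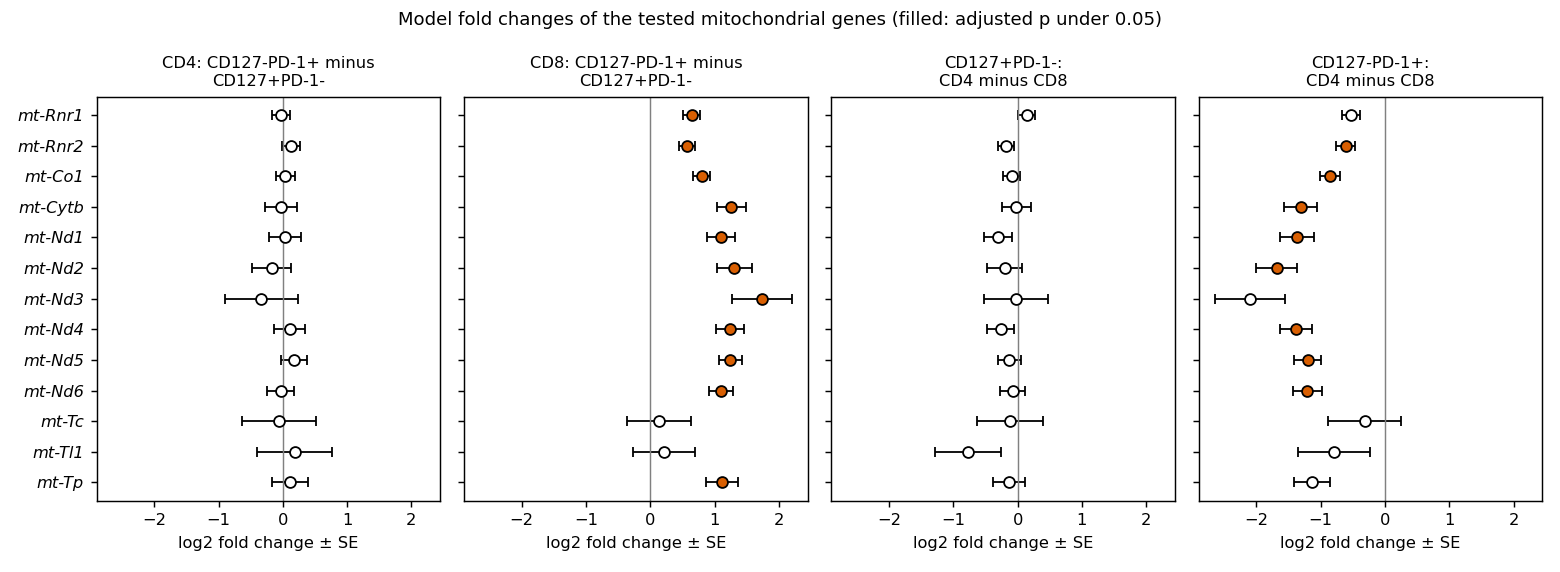
Log2 fold change with its standard error for the 13 tested mitochondrial genes in the 4 comparisons between groups, filled where the adjusted p was under 0.05. Of the 13 genes, 11 are filled and above 0 between the CD8 states, 8 are filled and below 0 between CD4 and CD8 cells of the CD127-PD-1+ state, and none is filled in the other comparisons.

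The difference between the CD4 and CD8 changes of state was tested as an interaction. Of the 13 genes 0 were called, with the smallest adjusted p at 0.580, and 0.00611% of all tested genes (1 of 16365) were called. At an unadjusted p under 0.05 there were 11 of 13, against 5.48% of all tested genes, and DESeq2 and limma-voom called 0 of the 13. The contrast includes the CD8+CD127-PD-1+ libraries, whose mitochondrial share was known when the set was proposed. The counts of genes in this paragraph are therefore a description. The estimates were -0.77 (SE 0.20) for mt-Co1, -1.07 (SE 0.27) for mt-Nd5, -1.29 (SE 0.34) for mt-Cytb and -0.67 (SE 0.19) for mt-Rnr1, each negative where the CD8 difference was the larger. Without a filter on low counts, 8 of 25 mitochondrial genes were called, all negative. In that setting 0.199% of all 29203 genes fitted were called negative and 0.0925% positive. The 8 were mt-Rnr1, mt-Co1, mt-Cytb, mt-Nd1, mt-Nd2, mt-Nd4, mt-Nd5 and mt-Nd6, so this result changed with the filter. A difference in mitochondrial expression change between the lineages was accordingly not called at the main setting.

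Genes in the nucleus that make, process or use mitochondrial RNA were read from 8 lists with 237 tested members. In CD8 cells 7 of the 237 were called lower in the CD127-PD-1+ state and 0 higher, against 6.56% of all tested genes called lower and 9.05% higher. In CD4 cells 7 were called lower and 1 higher, against 4.87% and 6.81%. Over the pooled lists these shares were below those of all tested genes in each direction. List by list, the share called lower was above that of all tested genes in some. In CD4 cells these were RNA modification and the aminoacyl-tRNA synthetases. In CD8 cells they were transcription and copy number, and the regulators of mitochondrial gene supply.

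For transcription and copy number of mitochondrial DNA, 2 of 21 genes were called lower in CD8 cells, where 6.56% of all tested genes were. Polg2, the accessory subunit of the mitochondrial DNA polymerase, was at 73.6 ± 6.77 CPM (SD, n = 3) in CD8+CD127-PD-1+ and 112 ± 20.4 CPM (n = 3) in CD8+CD127+PD-1- cells, a log2 fold change of -0.60 (SE 0.14, edgeR adjusted p = 0.0147). The other was Tfb2m, a mitochondrial transcription factor (-0.56, adjusted p = 0.0411). Polg2 was not called in 4 of 20 other settings (adjusted p up to 0.0704) and Tfb2m in 11 of 20 (up to 0.141). In CD4 cells 0 of 21 were called, and Polg2 stood at -0.45 (SE 0.16, adjusted p = 0.0955).

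Of 12 regulators of mitochondrial gene supply, 1 was called lower in CD8 cells (6.56% of all tested genes) and 0 in CD4 cells (4.87%). Ppargc1b, a coactivator that promotes mitochondrial biogenesis, was at 5.22 ± 1.16 CPM (SD, n = 3) against 9.47 ± 1.22 CPM (n = 3), a log2 fold change of -0.86 (SE 0.21). It was not called in 4 of 20 other settings, with adjusted p up to 0.0697. Gabpa, a transcription factor of respiratory genes, had a log2 fold change of 0.23 (SE 0.12) in CD4 cells and was not called.

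Among 23 genes of RNA processing, stability and decay, 1 was called lower in CD8 cells and 0 in CD4 cells. It was Lrpprc, which binds and stabilises mitochondrial messenger RNAs, at 43.9 ± 2.93 CPM (SD, n = 3) in CD8+CD127-PD-1+ and 62.8 ± 12.1 CPM (n = 3) in CD8+CD127+PD-1- cells. Its log2 fold change was -0.52 (SE 0.16, adjusted p = 0.0446), and it was not called in 10 of 20 other settings. In CD4 cells the most abundant member, Angel2, stood at -0.20 (SE 0.12) and was not called.

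RNA modification had 1 of 21 genes called lower in CD8 cells and 3 of 21 in CD4 cells. The shares of all tested genes called lower were 6.56% and 4.87%. Mettl8, which methylates mitochondrial transfer RNAs, was at 12.4 ± 1.77 CPM (SD, n = 3) against 31.3 ± 5.62 CPM (n = 3) in CD8 cells, a log2 fold change of -1.34 (SE 0.19, adjusted p = 0.000877). It was called in CD8 cells in all 20 other settings tried. In CD4 cells Mettl8 was called lower as well, with Alkbh1, a transfer RNA demethylase (-0.40, SE 0.12, adjusted p = 0.0465), and Qtrt1, a subunit of the queuosine-inserting enzyme (-0.75, adjusted p = 0.0478). Of 20 other settings, the CD4 call was lost in 16 for Alkbh1, 14 for Qtrt1 and 12 for Mettl8.

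Of the 23 mitochondrial aminoacyl-tRNA synthetases, which charge transfer RNAs with their amino acids, 1 was called lower in CD8 cells and 4 in CD4 cells. The shares of all tested genes called lower were 6.56% (CD8) and 4.87% (CD4). Nars2, for asparagine, was called in both, at 11.5 ± 1.35 CPM (SD, n = 3) against 18.4 ± 3.01 CPM (n = 3) in CD8 cells and at 9.88 ± 0.295 CPM (n = 2) against 19.1 ± 0.393 CPM (n = 3) in CD4 cells. The log2 fold changes were -0.68 (SE 0.16) and -0.95 (SE 0.18). Ears2, Tars2 and Wars2 were the others called in CD4 cells. Their log2 fold changes there were -1.17 for Ears2, -0.73 for Tars2 and -0.98 for Wars2. Of 20 other settings, the call was lost in 2 for Nars2 in CD8 cells and 0 in CD4 cells, and in 2 for Ears2, 1 for Tars2 and 4 for Wars2.

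Few genes of the translation machinery were called. Of 67 tested mitochondrial ribosomal proteins, the partners of mt-Rnr1 and mt-Rnr2 in the ribosome, 1 was called lower in CD8 cells (Mrpl24, log2 fold change -0.54, SE 0.16, adjusted p = 0.0358) and 0 in CD4 cells. Mrpl24 was not called in 8 of 20 other settings, with adjusted p up to 0.116. The summed level of all 68 listed, tested or not, was 652 to 752 CPM in CD8+CD127-PD-1+ and 629.5 to 769.98 CPM in CD8+CD127+PD-1- libraries. The sums thus overlapped where the ribosomal RNAs did not. Of 24 assembly and translation factors 0 were called in either lineage, and the most abundant, Gfm2, a factor of ribosome recycling, stood at 0.36 (SE 0.15, adjusted p = 0.135) in CD8 cells.

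Of 46 nuclear-encoded subunits of the respiratory chain, 0 were called in CD8 cells. Atp5b, an ATP synthase subunit, was at 482 ± 42.1 CPM (SD, n = 3) in CD8+CD127-PD-1+ and 475 ± 21.5 CPM (n = 3) in CD8+CD127+PD-1- cells. The summed level of the 46 was 1911 to 2306 CPM against 1824 to 2230.3 CPM, and the groups overlapped. In CD4 cells 1 was called higher, Uqcrc1, a complex III subunit, with a log2 fold change of 3.95. It was at 18.7 and 552 CPM in CD4+CD127-PD-1+ replicates 1 and 2 and at 17.0 to 19.7 CPM in CD4+CD127+PD-1- libraries, so replicate 2 alone stood apart. Without that replicate, with 1 library left in the group and its spread taken from the others, the log2 fold change was 0.03 (adjusted p = 0.970). The median log2 fold change of the 46 in CD8 cells was 0.02, against 1.24 for the 8 tested mitochondrial messenger RNAs.

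With library totals and no scaling, the number of list genes called lower in CD8 cells was 35 of 237, in place of 7, where 15.9% of all tested genes were called lower in place of 6.56%. Without CD8+CD127+PD-1- replicate 2 it was 1 and without CD8+CD127-PD-1+ replicate 2 it was 2, where 3.94% and 4.29% of all tested genes were called lower. It was 2 without CD8+CD127-PD-1+ replicate 3, with 1 list gene called higher, where 3.79% of all tested genes were called lower and 5.31% higher. It was 4 without replicate 1 of either CD8 group. There 5.34% (without the CD127-PD-1+ library) and 4.63% (without the CD127+PD-1- library) of all tested genes were called lower.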

How the data were processed

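RNA from each sorted pool (2 ng) was amplified by single primer isothermal amplification and sequenced as 75-base single reads, per the labels' protocols. The authors deposited whole-number counts per gene for the GRCm38 build, made with STAR and featureCounts per the submitters' processing notes, with versions, strand setting and treatment of multiply matching reads not given in the sources used here. 1 column, named like those of the CD4+CD127-PD-1+ group but without a matching sample label, was not used.

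The members and gene lists were chosen with earlier results of these data known. All 11 libraries were fitted with edgeR 4.0.16 (R 4.3.3): TMM scaling, filterByExpr by group, a mean for each of the 4 groups, the quasi-likelihood test and Benjamini-Hochberg adjustment over 16365 genes, with a threshold of 0.05. The biological coefficient of variation was 0.244. The fit was run on simulated counts with a common dispersion for all genes and planted changes in CD8+CD127-PD-1+ libraries only. That setting holds no shift of the mitochondrial share and no spread that differs by gene, so it cannot test the fit under these conditions. The text names all ribosomal and messenger RNAs, the tested transfer RNAs and, per list and comparison of states, the called member with the smallest p in each direction or, with none called, the most abundant; Tfb2m, Qtrt1, Ears2, Tars2 and Wars2 were added after their values were seen. Sequences and gene positions came from GENCODE M21. Alternatives were RLE, nuclear-gene or no scaling, no filter, DESeq2 1.42.0, limma-voom (limma 3.58.1), compared groups only, each library left out, and the label numbers as a block. In CD127+PD-1- cells same-numbered CD4 and CD8 libraries deviated together from their group means (r = 0.208, 0.147 and 0.318). Between other groups, libraries with the same description number had r from 0.001 to 0.325, all above 0. Libraries with different description numbers reached 0.272. With the same title number r ran from -0.209 to 0.272 between other groups. The main fit held no block for either number.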

Additional observations from a re-analysis of the deposited data

How the results depend on the processing

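With library counts outside the mitochondrial genome as the denominator, the ribosomal RNA share was 45.8%, 42.7%, 67.8% and 45.7% in the CD127-PD-1+ and then the CD127+PD-1- state, first of CD4 and then of CD8 cells, the messenger RNA share 2.81%, 2.71%, 5.85% and 2.97%, and the transfer RNA share 0.00107%, 0.000980%, 0.00213% and 0.00118%; these values are larger because the denominator is smaller. With 1 library left out at a time, 8 to 11 mitochondrial genes were called between CD8 states, 0 to 9 between lineages in CD127-PD-1+ cells, and 0 in the other comparisons. Between lineages in CD127-PD-1+ cells 1 was called with the compared groups only, where 0.468% of all tested genes were called lower. In the interaction without the filter 8 were called, where 0.199% of all genes fitted were called negative. The counts of called list genes were 3 to 8 in CD4 cells and 1 to 9 in CD8 cells with 1 library left out; these and the next were run after seeing the data. In CD4 cells 4 list genes were called with the compared groups only and 5 with limma-voom, and in CD8 cells 35 without scaling (where 15.9% of all tested genes were called lower) and 11 with DESeq2. Of all tested genes in CD4 cells, 6.66% were called higher and 3.85% lower with the compared groups only. With limma-voom these shares were 5.82% and 4.45%, and with DESeq2 in CD8 cells 10.6% and 8.17%. The cause of these changes was not tested.

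With the title number as a replicate block, 11 mitochondrial genes were called between CD8 states and 8 between lineages in CD127-PD-1+ cells. Of all tested genes 10.1% were called higher in the first comparison and 1.08% lower in the second. With the description number 9 and 7 were called, against 7.78% and 0.831%. In CD4 cells and between lineages in CD127+PD-1- cells either block left 0. There the title number gave 7.06% and 2.87% of all tested genes higher and 5.19% and 2% lower. The description number gave 7.82% and 3.87% higher and 5.4% and 2.66% lower. For list genes the block gave 4 calls in CD4 cells (title number) and 4 in CD8 cells (description number). Of all tested genes 7.06% were called higher and 5.19% lower in the first, and 7.78% and 4.85% in the second. What a shared number stands for was not tested. No called mitochondrial gene changed direction under any setting tried, while 46 of the 1284 values of single mitochondrial genes under other settings changed sign, all of them for genes that were not called. Counts were few for the transfer RNAs and mt-Nd3, with at most 41 counts per library for mt-Nd3. The part of depth, read length and shared sequence in this was not tested.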
